A study of Zea mays with 45 samples.

Results

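Leaves of the maize landrace Conico were set against leaves of the inbred line W23 on 4 arrays of a series of 45, chosen by their titles. Conico is a landrace of the Mexican highlands, and W23 is a laboratory inbred. The arrays carried spotted cDNA probes and were read in 2 colours, so that each array gave 1 log2 ratio of the RNA of the 2 lines per spot. In 2 arrays both lines had received supplementary ultraviolet-B (UV-B), and in the other 2 both had received no UV-B. Within each treatment, W23 lay in channel 1 of one array (called W23-first here) and Conico in channel 1 of the other (Conico-first). On the W23-first array with UV-B, the W23 stock was labelled b,pl, after genes that regulate anthocyanin pigment. Whether its alleles of these genes are active is not given in the title. The labels of the other 3 arrays say only W23. Plant age, dose, hours of exposure and numbers of plants are not given in the labels of these arrays, and nothing says that the arrays of a pair held separate plants. Thus p-values here measure the spread between arrays, which may be technical. The 4 arrays stand in a table of 12 with 4 arrays each of the landraces Arrocillo and Cacahuacintle against W23, which share the estimate of error. The titles give Arrocillo 2 arrays with and 2 without UV-B, and Cacahuacintle 1 with and 3 without, and whether 1 of those 3 is mislabelled is not known. The W23 stock with b and pl was the partner on 3 of the Arrocillo and 2 of the Cacahuacintle arrays, and both stocks were treated as W23.

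UV-B is the short-wave part of sunlight that reaches the ground, and it is stronger at high altitude. Plant leaves meet it with screening phenolic compounds, antioxidant enzymes and repair, while the photosystems and the carbon-fixing enzymes are known as targets of its damage. Maize landraces are variable populations kept by farmers, so a landrace and an inbred differ at very many genes, in sequence as well as in expression.

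The labels name the RNA of each channel and do not say how the ratio was formed. A ratio is thus placed only above or below 0, the positive or the negative side, and which line had more RNA cannot be told. As deposited, the ratios did not turn over as a whole when the channels were exchanged: arrays of opposite channel order within a treatment correlated positively over probes (r = 0.37 with UV-B, 5513 probes, and 0.43 without, 5422 probes). The arrays hold no level of a gene within a line. The tissue could thus be checked only through ratios, and in bulk leaf RNA fewer cells of a type and less RNA per cell cannot be told apart. Unequal RNA and unequal binding of the lines' sequences to a probe cannot be told apart either.

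The 12 arrays held 5760 probes, nearly all printed as 3 spots, and 5353 were measured often enough to be tested. Gene symbols were known for 404 probes, and 378 of these, from 310 genes, were among the tested ones. cDNA probes can bind close relatives of a gene, so values of gene families are uncertain at the level of a single gene. On the Conico arrays 4.34% to 5.02% of spots were blank. The SD of the ratios over probes was 0.296 to 0.325, against 0.375 to 0.531 on the other 8 arrays, and the median SD between spots of a probe was 0.021 to 0.028, against 0.038 to 0.054. Between 5.78% and 17.7% of the variance over the probes of a Conico array followed position in the spot numbering.

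The first question was which probes differed between Conico and W23 over both treatments. Calls rest on a linear model with a term for the channel order and need an adjusted p under 0.05 (limma, Benjamini-Hochberg adjustment over the 5353 probes). The model called 285 probes (5.32%), 159 on the positive side (2.97%) and 126 on the negative side (2.35%). With arrays not centred on their medians 65 were positive and 117 negative. Of the named genes, 24 of 310 (7.74%) held a called probe, 8 of them positive and 16 negative by the probe with the smallest p. Of the tested probes with a value on each of the 4 arrays, 1701 of 5186 (32.8%) had the same sign on each, against 269 of 281 called ones (95.7%). A call needs a mean of these same arrays far from 0, so the second share follows largely from the selection and supports no call. The middle 90% of all line differences ran from -0.33 to 0.36 on the log2 scale. Most called probes had no gene name, among them the largest positive one (first spot 2532), which read 1.42, 1.51, 2.06 and 1.49 with a difference of 1.62 (adjusted p = 8.54e-05). Without the channel term 105 probes were called, and leaving out single arrays gave 85 calls (without the W23-first array without UV-B) to 139 (without the Conico-first array without UV-B).

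How the 4 arrays resembled each other is a limit on all of what follows. Over the 5381 probes measured on each of them, the mean of the 4 arrays held 61.1% of the sum of squares of the ratios, and the channel order held 25.9%. UV-B held 9.25% and its product with the channel order 3.75%. Arrays of the same channel order correlated at 0.71 and 0.77 across the treatments, which is more than the 0.37 and 0.43 of arrays sharing a treatment but not an order. With each of 16 sections of the spot numbering centred on its median, the first pair of values was 0.70 and 0.74, and the second 0.61 and 0.56.

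**Figure D1:**
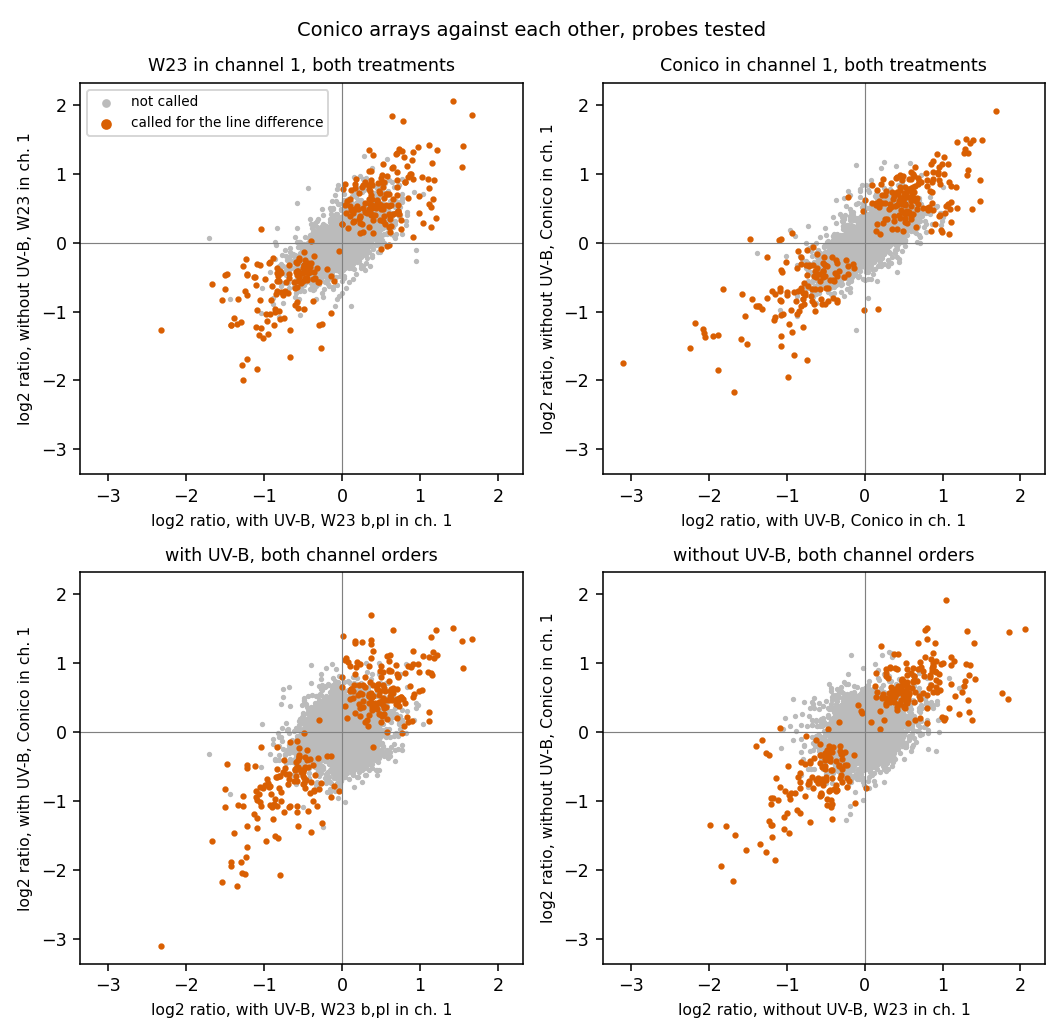
Log2 ratios of Conico and W23 on pairs of arrays, each point a tested probe, with the 285 probes called for the line difference in orange; both axes are log2 ratios with the array median set to 0. The upper panels share a channel order and differ in UV-B (r = 0.71 and 0.77), and the lower panels share a treatment and differ in channel order (r = 0.37 and 0.43).

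Among named genes, the largest line difference was that of thi2 and LOC541942. The thi2 gene encodes an enzyme that makes the thiazole ring of thiamine, the vitamin cofactor of central carbon metabolism, and LOC541942 has no role given in the annotation used. Values of 4 arrays are listed here and below with UV-B first, and within a treatment the W23-first array first. The probe of thi2 with the smallest p read -0.88, -1.05, -1.20 and -1.04. All 4 arrays lay close together, and the fitted difference was -1.04 (SE 0.109, adjusted p = 0.000134), a 2.06-fold ratio. Another thi2 probe read -1.30, -1.89, -1.15 and -1.85, with the Conico-first arrays farther from 0 in both treatments, and its difference was -1.55 (adjusted p = 0.000177). The remaining thi2 probes were not called, at -0.24 and -0.02, and the probes of thi1, the sister gene, stood at 0.05 and -0.03. Thus 2 of the 4 thi2 probes carried the difference. In the thiamine list 1 of the 2 tested genes was called, against 7.74% of all named genes. LOC541942 read -1.43, -1.95, -1.20 and -1.35, the lowest value being on the Conico-first array with UV-B. Its difference was -1.48 (SE 0.143, adjusted p = 8.54e-05), a 2.79-fold ratio.

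Sugar metabolism held called genes on both sides. The gene phi1 encodes phosphohexose isomerase, which interconverts the phosphates of glucose and fructose, and ivr2 encodes an invertase, which splits sucrose. The phi1 ratios were 0.89, 0.94, 1.00 and 1.00, nearly the same on every array, with a difference of 0.96 (SE 0.158, adjusted p = 0.00287). Its second probe was also called on the positive side (0.69, adjusted p = 0.0241), and another was not (0.34). The ivr2 probe read -0.91, -0.91, -0.83 and -0.72, again in a narrow band, with a difference of -0.84 (SE 0.106, adjusted p = 0.000505). A second ivr2 probe lay on the other side and was not called (0.31, adjusted p = 0.239). Of 16 tested genes of sugar and starch metabolism 2 were called, against 7.74% of all named genes. The median over the list's 24 probes was 0.04, against -0.000244 over all tested probes.

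In the light reactions of photosynthesis 2 of 7 tested genes were called, both on the negative side, as were 16 of the 24 called genes of the whole array (7.74% of named genes). The gene ftr1 encodes a subunit of ferredoxin-thioredoxin reductase, which hands electrons from ferredoxin to the thioredoxins that switch chloroplast enzymes. It read -0.56, -0.51, -0.94 and -0.88, with the arrays of a treatment agreeing closely. Its difference was -0.72 (SE 0.11, adjusted p = 0.00178). The light-harvesting protein of photosystem II encoded by lhcb5 read -0.62, -0.72, -0.57 and -0.34, all below 0. Its difference was -0.56 (adjusted p = 0.0464), and the adjusted p reached 0.478 without the Conico-first array with UV-B. Calls of lhcb5 were also lost without either array without UV-B (adjusted p = 0.124 and 0.375). Cab-m7, another light-harvesting protein, read 0.16, -0.44, 0.15 and -0.28, so that its sign followed the channel order, and it was not called (-0.10, adjusted p = 0.855). The list's median was -0.04, with 4 of its 8 probes on either side.

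Among genes of carbon fixation 1 of 13 tested was called, near the 7.74% of all named genes. This was pOMT1, which encodes a transporter of oxoglutarate and malate in the plastid envelope. It read 0.20, 0.54, 0.48 and 0.75, all positive, with a difference of 0.49 (SE 0.13, adjusted p = 0.0452). The call ended without any single Conico array (adjusted p 0.113 to 0.435). The Rubisco small subunit ssu1 read -0.02, -0.02, 0.33 and 0.01 and was not called (0.07, adjusted p = 0.863). Rubisco activase rca1 read 0.15, 0.16, 0.52 and 0.24 and was not called either (0.27, adjusted p = 0.227). The median of the list's 13 probes was 0.19, with 10 of them on the positive side (47.9% of all named probes). Its lowest and highest values were -0.14 and 0.49.

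Chaperones and folding enzymes gave 3 called genes of 8, against 7.74% of all named genes, with a protein disulfide isomerase pair on the negative and a heat shock protein on the positive side. Protein disulfide isomerases form and reshuffle the disulfide bonds of secreted proteins in the endoplasmic reticulum. PDIL1-1 read -0.57, -1.36, -0.55 and -0.92, farther from 0 on the Conico-first arrays. Its difference was -0.85 (SE 0.121, adjusted p = 0.00129). PDIL1-2 read -0.51, -0.76, -0.56 and -0.33 (difference -0.54, adjusted p = 0.017), and its other probes lay on the same side uncalled (-0.37 and -0.36). Hsp101, the chaperone that takes apart protein aggregates after heat, is encoded by hsp101, which read 0.11, 0.62, 0.77 and 0.81. Here the W23-first array with UV-B stood apart from the others, and the difference was 0.58 (SE 0.118, adjusted p = 0.0115). The call of PDIL1-2 ended without any single array (adjusted p 0.0524 to 0.225), and that of hsp101 without each array except the Conico-first one without UV-B (highest adjusted p 0.217).

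Proteins that act on pests and pathogens included 2 called genes. The chitinase gene chn1, whose product degrades the chitin of fungal walls, read -1.05, -0.79, -0.83 and -0.81. Its arrays agreed closely, and its difference was -0.87 (SE 0.143, adjusted p = 0.00276). The cystatin gene cpi2, an inhibitor of cysteine proteases, read -0.89, -1.08, -0.62 and -0.70, with a difference of -0.82 (SE 0.104, adjusted p = 0.000505). Both kept their calls without any 1 of the Conico arrays. Of the 4 tested defence genes 1 was called, and of the 8 cystatins and cysteine proteases also 1, against 7.74% of all named genes. The beta-glucosidase gene glu1, which releases toxic benzoxazinoids from their sugar conjugates, just missed the threshold (0.46, adjusted p = 0.055), and its other probe lay on the negative side (-0.23).

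In the chromatin list 1 of 14 tested genes was called, near the 7.74% of all named genes, namely the DNA methyltransferase gene met2. Its leading probe read 0.52, 0.88, 1.15 and 1.03, all positive and lowest on the W23-first array with UV-B. The difference was 0.89 (SE 0.173, adjusted p = 0.0083), and the second met2 probe stood at 0.11 and was not called. Without the Conico-first array with UV-B, or without either array without UV-B, the adjusted p of met2 was 0.0976, 0.0522 and 0.0537. Of the 11 aquaporins, channels for water, 1 was called, against 7.74% of all named genes. It was TIP4-1, of the vacuolar membrane, at -0.83, -1.08, -0.37 and -0.83. The W23-first array without UV-B lay nearest to 0, and the difference was -0.78 (SE 0.165, adjusted p = 0.0139). Its call held without the Conico-first array with UV-B and ended without each of the others (adjusted p 0.0533 to 0.148).

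Other named genes with the same sign on 4 arrays had no list. The gene cda1, whose role is not given here, read 0.71, 0.46, 0.91 and 0.76, all well above 0, with a difference of 0.71 (SE 0.106, adjusted p = 0.00178). The proton pump of the vacuole that uses pyrophosphate, encoded by vpp1, read 0.64, 0.59, 1.09 and 0.35, spread more widely within the treatment without UV-B. Its difference was 0.67 (adjusted p = 0.0374), and the call ended without any single array (adjusted p 0.0835 to 0.317). The gene por, also without a role here, read -0.96, -0.68, -1.14 and -0.67, nearer to 0 on the Conico-first arrays, and the phosphate transporter gene pht7 read -0.57, -1.08, -0.41 and -1.05, farther from 0 on them. Their differences were -0.86 (adjusted p = 0.00673) and -0.78 (adjusted p = 0.0105). The call of por ended without the Conico-first array with UV-B (difference -0.79) or the W23-first array without UV-B (-0.87). The call of pht7 ended without the Conico-first array with UV-B (-0.66) or the Conico-first array without UV-B (-0.62).

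**Figure D2:**
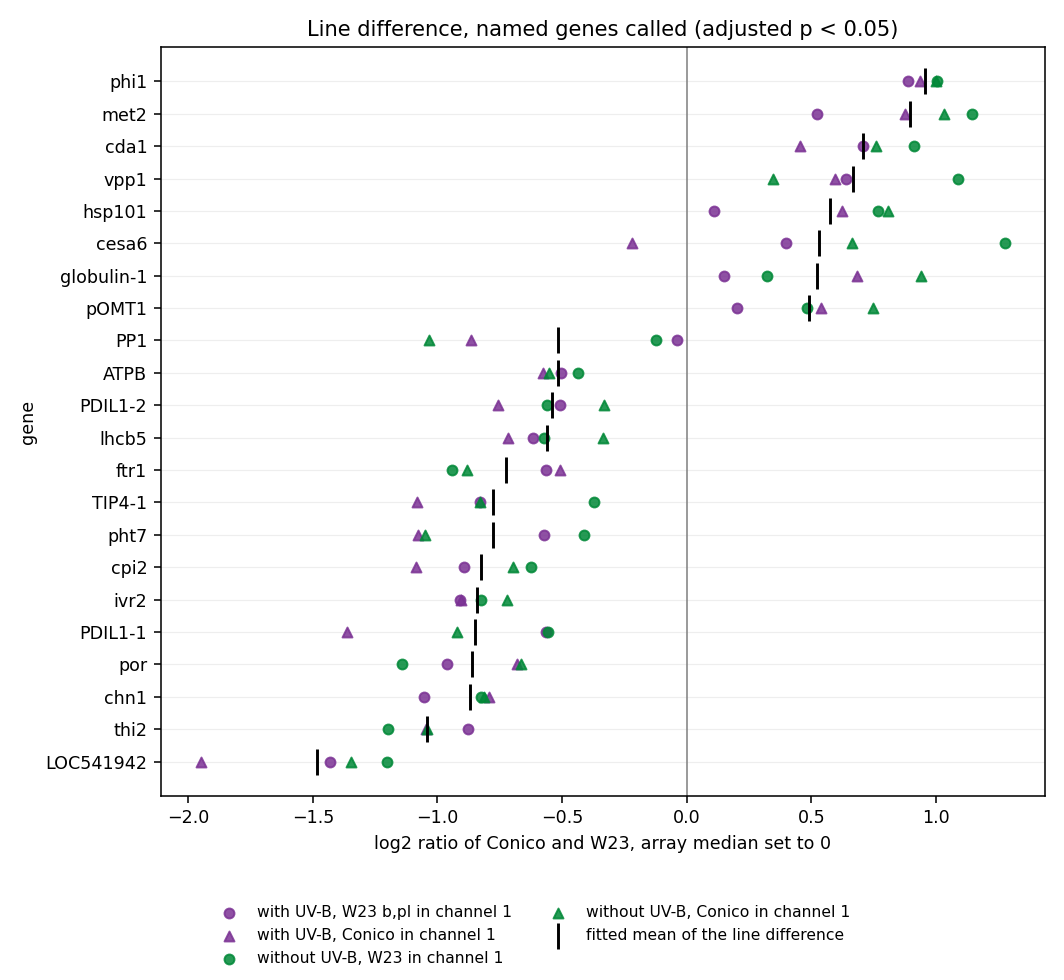
Log2 ratio of Conico and W23 on each of the 4 arrays (symbols, by treatment and channel order) and the fitted line difference (black bar) for 22 named genes called at an adjusted p under 0.05. The thi2 and phi1 arrays lie close together, and those of PP1 and globulin-1 split by channel order.

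Some called genes split by channel order or between their probes. The protein phosphatase gene PP1 read -0.04, -0.86, -0.12 and -1.03, that is near 0 on the W23-first arrays and far below on the Conico-first ones. Its difference of -0.52 was called (adjusted p = 0.0164), and the call ended without any single array (adjusted p 0.0939 to 0.174). The embryo storage protein gene globulin-1 read 0.15, 0.68, 0.32 and 0.94, also higher on the Conico-first arrays. Its difference was 0.52 (adjusted p = 0.0082), a second probe of the gene was called on the negative side (-0.38, adjusted p = 0.0414), and the first call ended without any single array (adjusted p 0.0578 to 0.124). Of the 6 seed and pollen markers tested it was the only called gene, against 7.74% of all named genes. The median of the list's 10 probes was 0.01. Probes of cesa6, a catalytic subunit of cellulose synthase, and of ATPB, the beta subunit of an ATP synthase, were called just inside the threshold (0.53, adjusted p = 0.0477, and -0.52, adjusted p = 0.0478). The last called genes, outside the rule for naming, were grp1 (-0.58, adjusted p = 0.0104) and the polygalacturonase gene pgl1 with both probes (-0.64 and -0.52, adjusted p = 0.0217 and 0.0334). Of the 20 called genes named here by the rule for the line difference, 9 kept their call whichever Conico array was left out, and 5 lost it whichever was left out.

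Other genes missed the threshold. The jasmonate gene opr6, an oxophytodienoate reductase, read -1.04, -0.51, -1.02 and 0.21. Of its arrays 3 were clearly negative and the Conico-first one without UV-B was positive. The difference of -0.59 was not called (SE 0.165, adjusted p = 0.057), and without that array it was -0.90 (adjusted p = 0.0106). It was also called with the replicate block fitted within each landrace (adjusted p = 0.0187), without centring (0.0235) and with sections centred (0.0215). Scaled arrays (0.0137) and array weights (0.000218) called it too. It stayed uncalled without the channel term (0.148), without the Cacahuacintle arrays (0.0964) and without the Arrocillo arrays (0.0591). Leaving out the W23-first array without UV-B brought the difference to -0.28. Leaving out the W23-first or the Conico-first array with UV-B gave -0.49 and -0.68. The other genes of jasmonate and lipid oxidation, aos1 and hpl1, stood near 0 (-0.05 and -0.06). Phenylalanine ammonia-lyase, the entry enzyme of phenolic sunscreens, is encoded by PAL1, which read 0.32, -0.17, 0.29 and 0.06, its sign changing with the order under UV-B. It was not called (0.12, adjusted p = 0.812), nor was any of the 3 phenylpropanoid genes.

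Antioxidant and glutathione genes had the lowest list median, -0.30 over 10 probes, and 8 of the 10 were on the negative side. However, limma called none, and 6 of 10 genes had an unadjusted p under 0.05. Over the whole array 864 of 5353 probes had such a p. Of all tested probes 50.0% lay on the positive side, and of the named ones 47.9%. The superoxide dismutase gene Sod4A read -0.55, -0.38, -0.36 and -0.17 (difference -0.36, adjusted p = 0.0612). The ferritin gene fer1 read -0.43, -0.67, -0.17 and -0.47 (difference -0.43, adjusted p = 0.0649). All 4 arrays were negative in each. The glutathione transferase gene GST39 read -0.76, -0.24, -0.88 and 0.01, with the W23-first arrays lower (difference -0.47, adjusted p = 0.0888). Sod4A, fer1 and GST39 were picked out after their values had been seen. No gene was called among 12 of translation, where 12 of 14 probes were on the negative side with a median of -0.08. Nor was any called among 6 genes of nitrogen assimilation, 5 of abscisic acid, cold and drought, 4 of the cytoskeleton and 3 of the cell cycle. Of 13 signalling genes only PP1 was called, against 7.74% of all named genes. At an unadjusted p under 0.05 these lists held 0 genes of translation, 1 of nitrogen assimilation, 2 of abscisic acid, cold and drought, 0 of the cytoskeleton and 0 of the cell cycle.

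**Figure D3:**
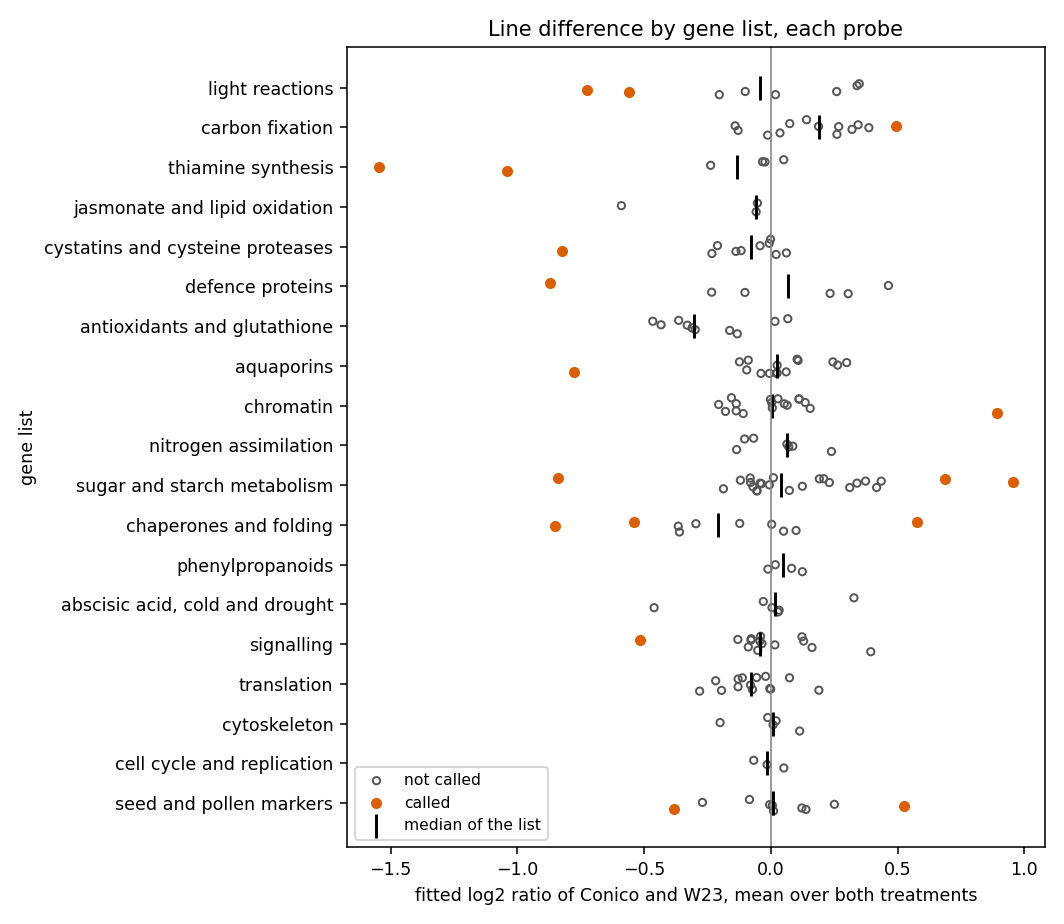
Fitted line difference (log2) of each named probe by gene list, with called probes filled and the list median as a black bar. Called probes lie on both sides of 0 in sugar metabolism, chaperones and the seed markers, and the antioxidant list has its median at -0.30 with no call.

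The second question was whether the line difference depended on UV-B. Since each array held both lines under 1 treatment, the ratio with UV-B minus that without is the interaction of line and treatment. Among the Conico arrays, only the W23-first one with UV-B was labelled with the b,pl stock. A share of that stock in this contrast cannot be told apart from UV-B. The model on 12 arrays called 0 of 5353 probes (0%) for the interaction, and 85 had an unadjusted p under 0.05. Its standard error was 0.24 at the median, and from 0.20 to 0.35 over the middle 90% of probes. The interaction itself ran from -0.31 to 0.27 over that range, and from -0.62 to 0.50 over the 285 probes called for the line. At this error no dependence on UV-B was called for any named gene, which does not show that the lines respond alike.

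Taken by themselves, the arrays with UV-B gave 85 calls (1.59%), 32 positive and 53 negative, and those without UV-B gave 107 (2%), 65 positive and 42 negative. With arrays not centred on their medians the balance without UV-B turned over, at 8 positive and 38 negative calls. Called in both were 41 probes, each on the same side in both treatments, while 142 of the probes called over the 4 arrays were called in neither treatment. Of the 41, 6 probes of 5 genes had a name: both thi2 probes, LOC541942, ivr2, cpi2 and PDIL1-1. The chitinase gene chn1 was called with UV-B alone (adjusted p = 0.0366 against 0.0617 without). Called without UV-B alone were phi1, cda1, ftr1, globulin-1, hsp101, met2 and cesa6. None of these 8 genes was called for the difference between the treatments. With UV-B, leaving out the W23-first or the Conico-first array left 12 and 16 calls. Without UV-B, leaving out the W23-first array left 0 and leaving out the Conico-first array left 5.

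The 5 named genes on each side with the largest dependence are given as values. They were chosen for the size of this difference on the same arrays. That their treatments lie apart thus follows largely from the selection and supports no dependence on UV-B. On the negative side, cesa6 read 0.40 and -0.22 with UV-B and 1.28 and 0.66 without, so that both arrays without UV-B were above both with it. The interaction was -0.88 (SE 0.282, adjusted p = 0.9998). Another cellulose synthase gene, cesa5, read -0.06, 0.08, 0.78 and 0.42, again without overlap of the treatments (-0.60, SE 0.269). The MAP kinase gene mpk2 read -0.15, 0.25, 0.31 and 1.16, with 1 array without UV-B far above the other (-0.68, SE 0.316). The catalase gene cat1, whose product breaks down hydrogen peroxide, read -0.80, -0.41, -0.35 and 0.37 (-0.61, SE 0.275). There the treatments did not overlap, by a narrow margin. The plasma membrane aquaporin gene pip1-2 read 0.23, -0.19, 0.97 and 0.18, with overlap (-0.56, SE 0.402).

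On the positive side, nfa104, a nucleosome assembly factor, read -0.00 and 0.21 with UV-B and -0.49 and -0.34 without. Its treatments did not overlap, and the interaction was 0.51 (SE 0.211). The light-reaction gene ftr1, already called for the line, had an interaction of 0.38 (SE 0.22), with ratios about -0.5 with and -0.9 without UV-B. The MADS-box gene MADS67 read -0.11, -0.17, -0.53 and -0.47 (0.36, SE 0.205), with each treatment in a narrow band. The ribosomal protein gene rpl39 read -0.12, -0.07, -0.67 and -0.26 (0.37, SE 0.284), and the small GTPase gene yptm1 read 0.47, 0.84, 0.16 and 0.47 (0.34, SE 0.288). For rpl39 the treatments stayed apart, and for yptm1 they met.

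By list, the dependence was more often negative than positive in 14 of 19 lists, and no list held a call. Examples are carbon fixation (11 of 13 probes, median -0.19), the cystatins and cysteine proteases (8 of 10), the aquaporins (12 of 15, median -0.04) and the antioxidants (7 of 10). Elsewhere the negative probes were 8 of 17 for chromatin, 6 of 14 for signalling and 1 of 3 for jasmonate and lipid oxidation. Translation (7 of 14) and abscisic acid, cold and drought (3 of 6) were evenly split. The dependence was negative for 57.4% of the named probes (median -0.03) and for 51.2% of all tested probes (median -0.0047).

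**Figure D4:**
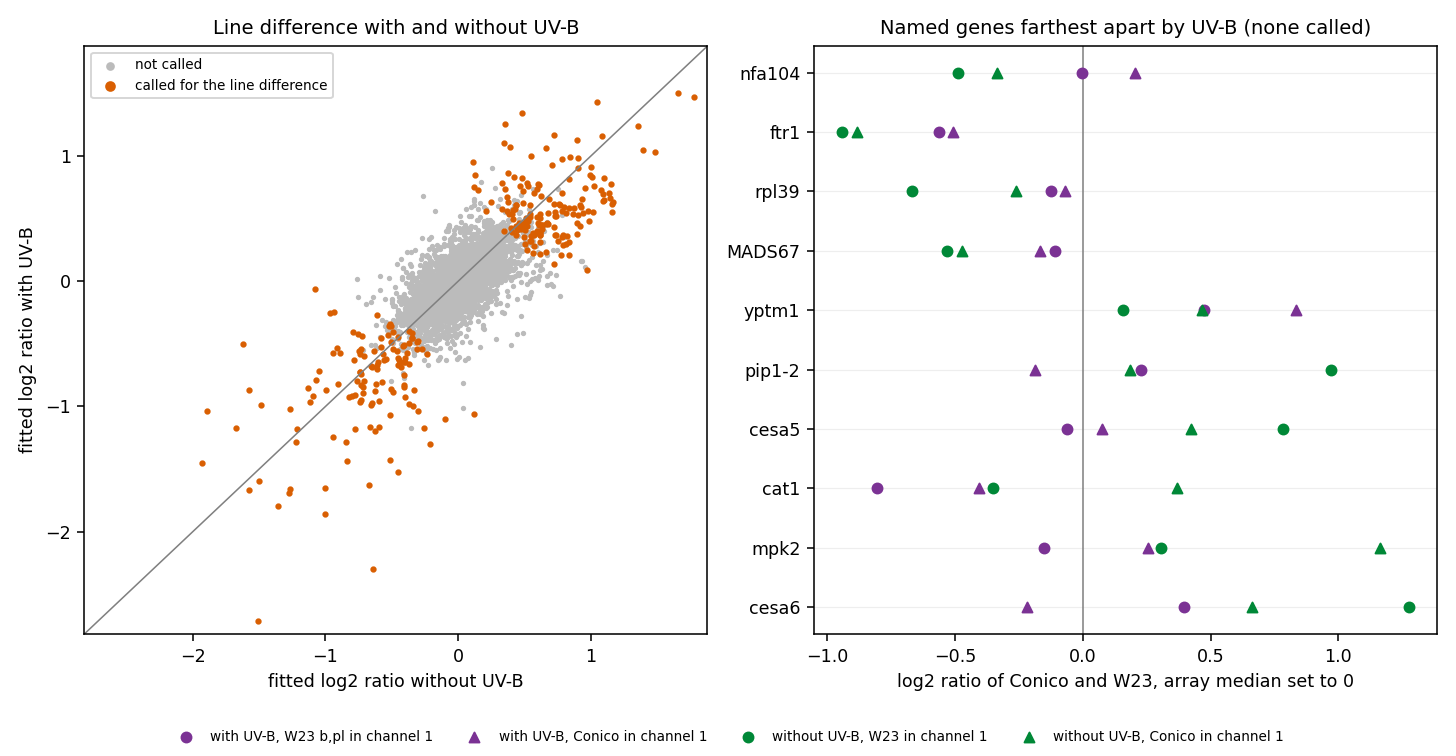
Left, fitted log2 ratio with UV-B against that without for each tested probe, with the line of equality and the 285 probes called for the line difference in orange. Right, the 4 arrays of the 10 named genes with the largest dependence on UV-B, none of them called. The treatments overlap for pip1-2, meet for yptm1 and lie apart for the others, which follows largely from the selection.

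The count of 0 comes from a fit that shares its error with the other landraces, whose arrays were more spread. Fitted on the 4 Conico arrays alone, with 1 residual degree of freedom and a single standard error of 0.117 for every probe, the interaction gave 317 calls, 121 positive and 196 negative. Of these, 24 had a name, 4 positive and 20 negative, and cesa6 had an adjusted p of 2.32e-11. Such p-values rest on that 1 common error and do not measure the spread of the single probe. With sections of the spot numbering centred as well, 150 probes were called, and the adjusted p of cesa6 was 0.00863. Array weights on all 12 arrays gave 138 calls. Whether a shared or a separate error is right for Conico was not tested. The probe with the largest interaction in the Conico-only fit had no name (first spot 10961). It read -2.33 and -3.10 with UV-B and -1.26 and -1.75 without, the former being the lowest ratios of any called probe on those arrays, and its line difference was -2.11 (adjusted p = 4.69e-05).

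The third question was which differences stood apart from those of the other landraces. W23 was the partner in all 12 arrays and may be the same RNA in them, so values of the landraces are given side by side. Testing Conico minus the mean of Arrocillo and Cacahuacintle called 1 probe of 5353 (0.0187%), and 208 had an unadjusted p under 0.05. The Cacahuacintle mean weights its treatments equally, so its part with UV-B rests on 1 array. The called probe had no name (first spot 8850), and it was -1.04 and -1.08 with UV-B and 0.19 and 0.05 without. Its ratios thus lay far below 0 under UV-B and near 0 otherwise. That interaction of -1.18 was not called in the limma fit on 12 arrays (adjusted p = 0.9998). On the Conico arrays alone limma called it (adjusted p = 3.65e-20, 1 residual degree of freedom). That fit gave every probe the same standard error, and with sections centred as well the adjusted p was 0.00588. Conico differed from the others by -1.29 (SE 0.159, adjusted p = 0.00977), at a fitted -0.47 against 0.94 in Arrocillo and 0.70 in Cacahuacintle. The call ended without either array with UV-B and without the Conico-first array without UV-B. It held without the Cacahuacintle arrays and ended without the Arrocillo arrays, where 6 other probes were called.

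No named gene was called in that test, and the 3 with the largest moderated statistic on each side are given. The gene m4, with no role given here, stood at 0.07 in Conico, -0.66 in Arrocillo and -0.72 in Cacahuacintle (difference 0.76, SE 0.17, adjusted p = 0.291). The methyltransferase gene met2 stood at 0.89, 0.19 and 0.04 (0.78, SE 0.218, adjusted p = 0.683), and a probe of IDI2 at -0.00, -0.31 and -0.93 (0.62, SE 0.177, adjusted p = 0.752). On the negative side rca1 stood at 0.27, 0.71 and 0.58 (-0.38, SE 0.137, adjusted p = 0.988). The cystatin gene cpi2 stood at -0.82, -0.72 and -0.25 (-0.34, SE 0.132), and ATPB at -0.52, 0.06 and -0.23 (-0.43, SE 0.174). For met2, cpi2 and ATPB the Conico value was the farthest from 0, and for m4, IDI2 and rca1 it was the nearest.

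Several genes with large Conico ratios, chosen after their values had been seen, had values of similar size in all 3 landraces. For LOC541942 they were -1.48, -1.28 and -1.45, for thi2 -1.04, -1.02 and -1.14, and for chn1 -0.87, -0.79 and -1.17, in the order Conico, Arrocillo, Cacahuacintle. The phi1 ratios were 0.96, 1.29 and 0.81, and those of hsp101 0.58, 0.48 and 0.69. Conico minus the others was -0.12 (SE 0.181) for LOC541942, 0.04 (SE 0.137) for thi2 and 0.11 (SE 0.18) for chn1. For phi1 it was -0.10 (SE 0.2), and for hsp101 -0.01 (SE 0.149). Since the genes were chosen for their likeness, these differences support nothing about the landraces.

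**Figure D5:**
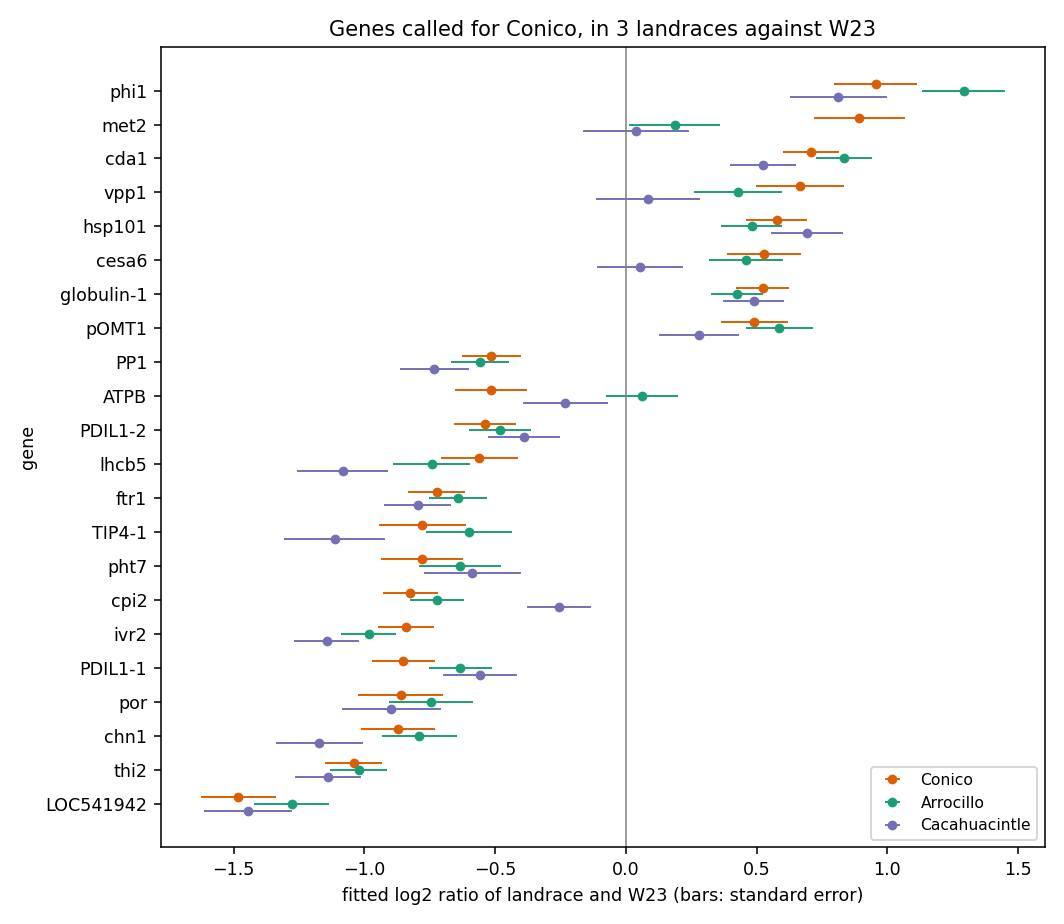
Fitted log2 ratio of each landrace and W23, with its standard error, for the 22 named genes called for Conico. For LOC541942, thi2, por, ftr1 and globulin-1 the error bars of the landraces overlap, and for met2 the Conico value of 0.89 lies apart from 0.19 and 0.04.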

How the data were processed

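RNA of maize leaves was compared on 2-colour cDNA arrays. The authors deposited 1 log2 ratio per spot and array. Per the design text they fitted analysis of variance models with a dye term to log intensities; whether the deposited values passed through these is not given in the sources used here. Blank spots were taken as missing. Here the spots of a probe were averaged, each array was centred on its median, and a probe was kept if at least 9 of the 12 arrays and each of the 6 groups had a value. With limma 3.58.1 (R 4.3.3) a linear model per probe was fitted, with a coefficient for each landrace and treatment and 1 channel term (5 residual degrees of freedom, moderated variances, two-sided tests, Benjamini-Hochberg adjustment). A fold is 2 to the power of the absolute log2 ratio.

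The replicate number of the titles marks the channel order, so the channel term is also a replicate block. Deviations of same-numbered Conico arrays from their group means correlated at 0.75 (5381 probes). The fit was tested on simulated data.

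The members and gene lists were chosen with earlier results of these data known. Named genes follow a rule: per side the 10 largest called line differences with 1 sign on 4 arrays, the 5 largest dependences on UV-B, the called genes of each list, any gene called against the other landraces or else 3 per side, and 6 genes whatever their values. The probe with the smallest p names a gene. Names came from an old annotation of the array and from symbols of the reference Zm-B73-REFERENCE-NAM-5.0. Of 329 genes 314 were in the reference, and no coordinates or sequences were used. Alternatives were other centrings, scalings, filters, weights, channel terms and sets of arrays.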

Additional observations from a re-analysis of the deposited data

Results flagged for a closer look

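The probe with first spot 8850, which has no gene name here, was the only one to differ between Conico and the mean of the other landraces in a test of the difference itself (-1.29, SE 0.159, limma, adjusted p = 0.00977). Both Conico arrays with UV-B were below -1.0 and both without UV-B lay slightly above 0, so that the fitted Conico value of -0.47 stands for no array. The difference between the treatments was not called in the limma fit on 12 arrays (adjusted p = 0.9998). The cause was not tested.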

How the results depend on the processing

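The 4 arrays limit the precision, and no plant replicate is known. In the order line difference, with UV-B, without UV-B and Conico minus the others, the counts of 285, 85, 107 and 1 became 556, 181, 203 and 2 with sections centred, 821, 331, 400 and 18 with arrays scaled to equal spread, and 1943, 940, 1770 and 33 with array weights. Without centring they were 182 (65 positive, 117 negative, against 159 and 126), 64, 46 and 2, where the array medians of -0.263 to 0.033 stay in the ratios. Without the channel term, that is with no replicate block, they were 105, 29, 26 and 1, and with a replicate block within each landrace 455, 110, 152 and 6. The Conico arrays alone gave 2130, 1466 and 1423, from 1 residual degree of freedom. Further alternatives were added after the data had been seen: the Conico arrays alone with sections centred gave 2240, 1558 and 1505, and array weights with sections centred gave 2008, 1180, 1553 and 34. Without the Arrocillo arrays 6 probes were called for Conico minus the others. Leaving out single Conico arrays gave 85 to 139, 12 to 82, 0 to 93 and 0 to 1. The UV-B dependence went from 0 to 1 (scaled), 138 (weights), 317 (Conico alone), 150 (Conico alone, sections) and 152 (weights, sections), and stayed at 0 in the other alternatives, leaving out single arrays included. Other filters, the median of spots, a robust prior and leaving out Cacahuacintle kept each count within 1.5 times.

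If the ratios followed the channel order and not the lines, all 3 counts of line differences would be 0 and 13 of the 20 called genes would change side: phi1 to -0.0117, met2 to -0.0602, hsp101 to -0.14, globulin-1 to -0.29, pOMT1 to -0.15, LOC541942 to 0.17, thi2 to 0.0033, PDIL1-1 to 0.29, cpi2 to 0.066, pht7 to 0.29, TIP4-1 to 0.18, PDIL1-2 to 0.0052 and PP1 to 0.43. In no other alternative did any of the 20 change side. All 20 kept their calls with sections centred, arrays scaled, array weights and the Conico arrays alone, 15 without centring and 12 without the channel term. The causes of these changes were not tested.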
